A study of Rattus norvegicus with 9 samples.

Results

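The aryl hydrocarbon receptor (Ahr) and the cytochrome P450 enzymes Cyp1a1 and Cyp1b1 are described here in endothelial cells of the rat renal artery. The 3 genes were chosen by their Ensembl identifiers (ENSRNOG00000004342 for Ahr, ENSRNOG00000019500 for Cyp1a1 and ENSRNOG00000040287 for Cyp1b1) out of 32883 in the deposited gene table, a rule that uses no measured value but was set with earlier results of these data known. All 3 were detected in every library and passed the filter on low counts, as did 12943 genes in all. The cells are called a cell line in the labels and were grown as dense monolayers in serum-supplemented medium, and the libraries were made from total RNA. Each of the 3 groups held 3 libraries. The Normal group carries no named agent, the Model group is tied to angiotensin II only by the series title, and the third group, called Treated here, received calycosin and tanshinone IIA. No label says whether the Treated cells also received angiotensin II, nor do the labels give doses, times or a vehicle. Separate cultures are not stated either, so a p-value here sets a group difference against the spread between libraries, which may be technical.

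Ahr is a transcription factor of the bHLH-PAS family that rests in the cytoplasm bound to chaperones. After a ligand binds, it enters the nucleus, pairs with Arnt and binds DNA at elements with the core GCGTG. Cyp1a1 and Cyp1b1 are textbook targets of this pair and are widely used as readouts of it. Both enzymes oxidise aromatic hydrocarbons and oestradiol, and Cyp1b1 is known for its expression outside the liver, vessel walls included. Calycosin belongs to the isoflavones and tanshinone IIA to the quinones of danshen root. Many plant flavonoids are known to bind the receptor, some as activators and some as blockers. The question of this comparison is whether the pair of compounds raised the receptor's targets.

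Cyp1a1 and Cyp1b1 were higher in the Treated libraries than in both other groups, and Ahr was not called in any comparison. Cyp1a1 rose 2.22-fold against Model and 2.39-fold against Normal. Cyp1b1 rose 1.47-fold against Model and 1.37-fold against Normal. None of the 3 genes was called between Model and Normal, where 0 of all 12943 tested genes were called.

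Cyp1a1 had no window in the RefSeq promoter table, so its promoter was not examined. The promoter windows of Ahr and Cyp1b1, the members that had one, are shown. They are the 250 bases before the transcript start that the RefSeq promoter table uses on the build GRCr8, at chr6:57998902-57999151 on the minus strand for Ahr and chr6:21094315-21094564 on the plus strand for Cyp1b1. Both are written 5′ to 3′, and capitals mark the core GCGTG, or CACGC where it lies on the opposite strand.
Ahr: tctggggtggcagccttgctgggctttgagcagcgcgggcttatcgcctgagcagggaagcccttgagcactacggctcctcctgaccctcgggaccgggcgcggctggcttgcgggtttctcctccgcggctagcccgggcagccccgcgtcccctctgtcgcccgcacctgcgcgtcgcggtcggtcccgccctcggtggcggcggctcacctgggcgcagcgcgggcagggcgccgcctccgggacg
Cyp1b1: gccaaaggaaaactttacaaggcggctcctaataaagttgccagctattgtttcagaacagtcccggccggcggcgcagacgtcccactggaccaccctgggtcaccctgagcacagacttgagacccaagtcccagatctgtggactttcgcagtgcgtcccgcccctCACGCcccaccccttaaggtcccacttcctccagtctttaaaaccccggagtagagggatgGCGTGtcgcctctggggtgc
The Cyp1b1 window held 2 copies of GCGTG, 1 on the opposite strand at -81 to -77 and 1 on the gene's own strand at -20 to -16, where negative positions count bases back from that start. The second copy was also the single match to the longer form TNGCGTG, at -22 to -16, so the matches of the forms overlap. The Ahr window held 0 copies of either form. Over 33469 RefSeq promoters of the same length, 25.9% held GCGTG and 4.09% held TNGCGTG on either strand. A match describes the letters and is not evidence of binding, and elements farther from that start lie outside these windows. RefSeq places the Ahr gene at chr6:57961423-57998901, Cyp1a1 at chr8:66991940-66998014 and Cyp1b1 at chr6:21093927-21103091 on GRCr8. The annotated Cyp1b1 gene begins upstream of the window shown, so a longer transcript model overlaps it. The counts were made on another build, mRatBN7.2.

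Library totals in the gene table ranged from 7.98 to 18.3 in units of 1e6 counts, and the shallowest were Treated 2 and Treated 3, at 7.98 and 8.15. The members were well above the level that depth limits, with a lowest count of 205. Levels are compared between genes as the authors' FPKM (fragments per kilobase of transcript and per 1e6 counts), which takes account of the different feature lengths of 5144 bases for Ahr, 2638 for Cyp1a1 and 6658 for Cyp1b1. Differences between groups rest on the read counts and are shown as counts per 1e6 counts of the scaled library size (CPM). Fewer cells of a kind and less RNA per cell cannot be told apart in bulk RNA. Symbols of other genes were not matched to the deposited identifiers, so endothelial markers and the other genes of the receptor pathway were not analysed here.

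Ahr, the receptor, was the most abundant of the 3 genes in every library. Its level was 24.4, 20.02 and 23.3 FPKM in Normal, 19.7, 23.7 and 19.96 FPKM in Model and 19.0, 19.9 and 23.0 FPKM in Treated libraries. The 3 groups overlapped, each with at least 1 library at 22.95 FPKM or more and at least 1 at 20.02 FPKM or less. Group means were 22.6 ± 2.26 FPKM in Normal, 21.1 ± 2.25 in Model and 20.6 ± 2.06 in Treated (SD, n = 3), and no neighbours in that order differed beyond their spread. Ahr ranked within the top 21.8% to 28.5% of the genes above 0 of a library by FPKM. Its log2 fold change was -0.05 ± 0.10 for Treated against Model (SE; 95% interval -0.26 to 0.15; edgeR adjusted p = 0.855) and -0.14 ± 0.10 for Treated against Normal (95% interval -0.35 to 0.06; edgeR adjusted p = 0.450). The intervals allow a Treated level of 0.837 to 1.11 times that of Model and of 0.785 to 1.04 times that of Normal. Against Model the sign of the Ahr difference was not stable: it was 0.04 without Model 2 and close to 0 without Treated 1.

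Cyp1a1, which oxidises aromatic hydrocarbons and is the classic readout of receptor activation, set the Treated libraries apart. It had 243, 221 and 205 counts in Normal, 212, 290 and 352 in Model and 764, 348 and 305 in Treated, the last 2 from the shallowest libraries. In CPM these were 18.1, 16.3 and 16.7 in Normal, 16.02, 18.3 and 20.7 in Model and 41.8, 43.2 and 37.2 in Treated. The lowest Treated library thus lay 1.8-fold above the highest Model library and 2.06-fold above the highest Normal library, while Normal and Model overlapped. Treated 1, the deepest library, had 41.8 CPM. Treated 2, the shallowest, had 43.2 CPM and Treated 3, nearly as shallow, had 37.2 CPM. Whether depth bears on these levels was not tested.

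**Figure D1:**
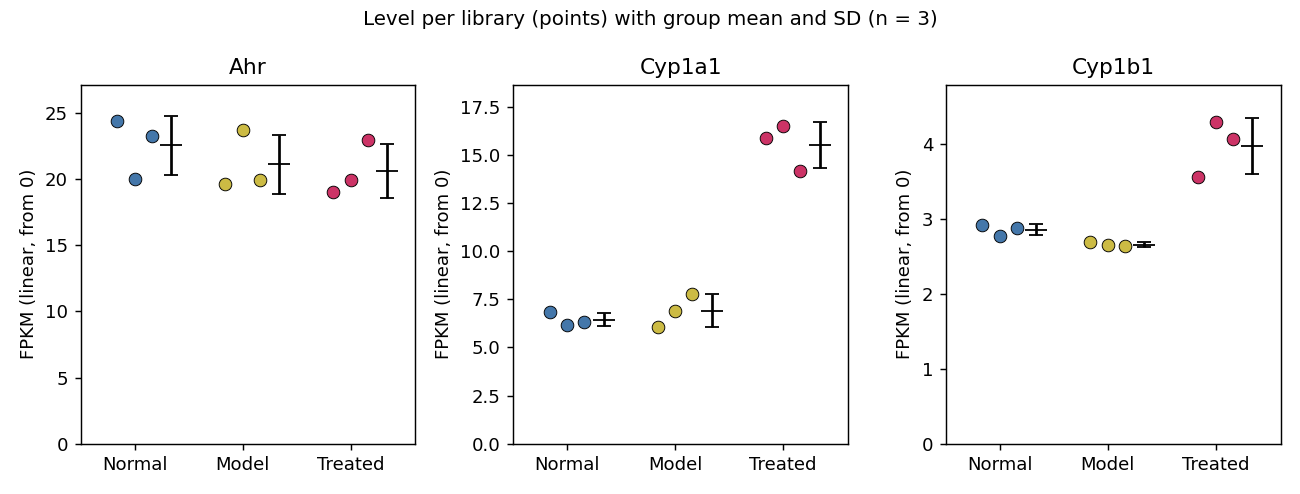
Level in FPKM (linear axes from 0) of Ahr, Cyp1a1 and Cyp1b1 in each of the 9 libraries, as points by group, with the group mean and SD (n = 3) beside them. The groups overlap for Ahr, whereas the 3 Treated libraries lie above all other libraries for Cyp1a1 (14.2 to 16.5 FPKM) and Cyp1b1 (3.55 to 4.29 FPKM). In CPM, 18.8% of tested genes did not overlap between Treated and Model and 24.4% between Treated and Normal, in either direction.

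Mean Cyp1a1 was 40.8 ± 3.15 CPM in Treated, 18.3 ± 2.32 CPM in Model and 17.0 ± 0.904 CPM in Normal (SD, n = 3). The log2 fold change was 1.15 ± 0.10 for Treated against Model (SE; adjusted p = 0.000239 by the quasi-likelihood test of edgeR), a fold of 2.22 with a 95% interval of 1.90 to 2.59. For Treated against Normal it was 1.26 ± 0.11 (edgeR adjusted p = 9.30e-05), a fold of 2.39 with a 95% interval of 2.05 to 2.80. These comparisons share the Treated libraries and are not independent of each other. In both, Cyp1a1 had the smallest p of the 12943 genes tested in this fit. By size of fold it stood at place 6 of the 74 genes called higher than Model, whose median fold was 1.42, and at place 4 of the 180 called higher than Normal, whose median fold was 1.36.

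Cyp1b1, the other CYP1 enzyme among the 3 genes, moved the same way by less. Its counts were 262, 250 and 235 in Normal, 237, 280 and 301 in Model and 432, 228 and 220 in Treated. Scaled to CPM they were 19.5, 18.5 and 19.2 in Normal, 17.9, 17.7 and 17.7 in Model and 23.7, 28.3 and 26.8 in Treated. Within the Treated group the deepest library, Treated 1, was the lowest and the shallowest, Treated 2, the highest. A link of Cyp1b1 to depth was not tested. All 3 Treated libraries lay above the other 6. The lowest of them was 1.32-fold above the highest Model library and 1.21-fold above the highest Normal library. CPM did not overlap, in either direction, for 18.8% of tested genes between Treated and Model and 24.4% between Treated and Normal. How many genes had the Treated libraries above all others was not computed. Means were 26.3 ± 2.38 CPM in Treated, 17.8 ± 0.137 CPM in Model and 19.1 ± 0.516 CPM in Normal (SD, n = 3).

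The log2 fold change of Cyp1b1 was 0.56 ± 0.09 for Treated against Model (SE; edgeR adjusted p = 0.0121), a fold of 1.47 with a 95% interval of 1.28 to 1.69. Against Normal it was 0.45 ± 0.09 (edgeR adjusted p = 0.0186), a fold of 1.37 with a 95% interval of 1.19 to 1.57. Its place by fold was 34 of the 74 genes called higher than Model and 85 of the 180 called higher than Normal. Each Cyp1b1 call was lost when any of 4 libraries was left out. Against Model the adjusted p was 0.0535 without Model 1, 0.0613 without Model 3, 0.0924 without Treated 2 and 0.0552 without Treated 3 (edgeR). Against Normal it was 0.0797 without Normal 1, 0.0727 without Normal 2, 0.103 without Treated 2 and 0.0784 without Treated 3 (edgeR). The log2 fold change in the 4 fits that lost the call ran from 0.50 to 0.56 against Model and from 0.40 to 0.47 against Normal.

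**Figure D2:**
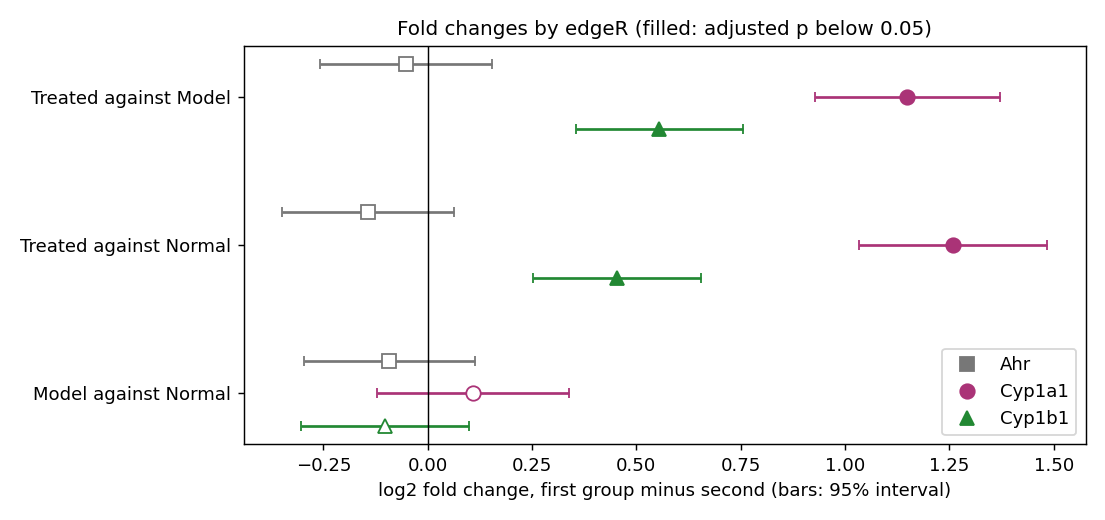
Fitted log2 fold change of each gene in the 3 comparisons (first group minus second), with 95% intervals as bars and filled symbols for an edgeR adjusted p below 0.05. Cyp1a1 (1.15 and 1.26) and Cyp1b1 (0.56 and 0.45) lie right of 0 in both comparisons of the Treated group, and all intervals of Ahr and all those of Model against Normal include 0.

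Thus 2 of the 3 genes were called, both higher, in each comparison of the Treated group. The background of calls over all genes tested was 0.919% for Treated against Model (0.572% higher) and 2.67% for Treated against Normal (1.39% higher). CPM values of the 2 groups did not overlap for 18.8% of the tested genes between Treated and Model and for 24.4% between Treated and Normal, and among the members they did not overlap for Cyp1a1 and Cyp1b1. The median log2 fold change of all tested genes was -0.000964 for Treated against Model and 0.000702 for Treated against Normal.

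**Figure D3:**
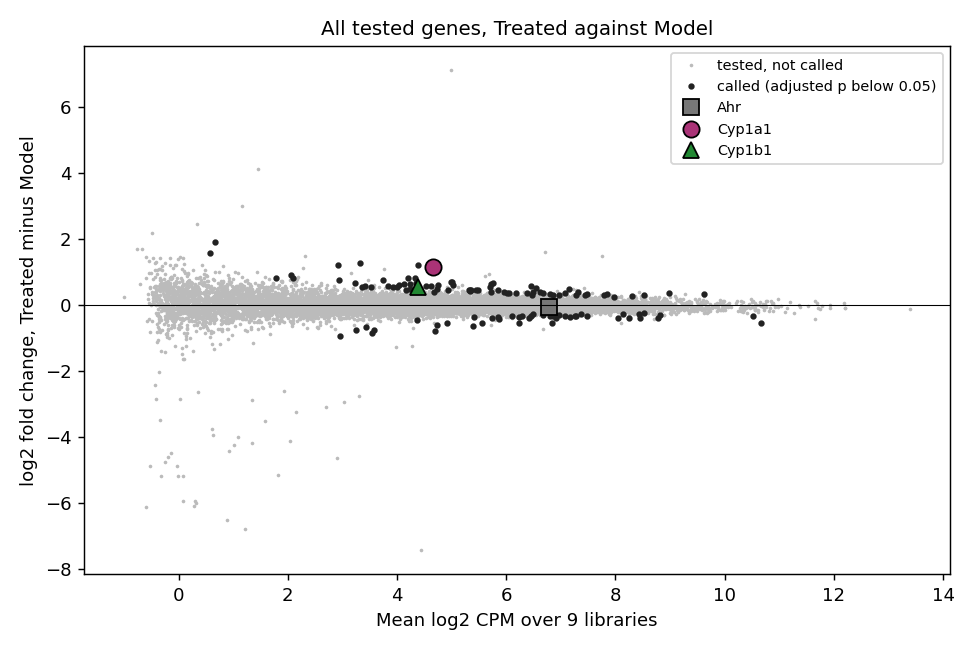
Log2 fold change of Treated against Model for all 12943 tested genes against their mean log2 CPM, with the 119 called genes as dark points and the 3 members as large symbols. Cyp1a1 (1.15) and Cyp1b1 (0.56) lie at the upper edge of genes of like abundance and Ahr (-0.05) near 0, and some genes with larger folds in either direction were not called.

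The comparison of Model with Normal holds neither compound. The percentage of genes called there was 0, with 0 also called by DESeq2. An unadjusted edgeR p below 0.05 was given to 550 of 12943 genes, fewer than that threshold passes on average where no gene differs. For Cyp1a1 the log2 fold change was 0.11 ± 0.11 (SE; 95% interval -0.12 to 0.34), and the libraries of the 2 groups overlapped. For Ahr it was -0.09 ± 0.09 (95% interval -0.30 to 0.11), also with overlap. Cyp1b1 was lower in all 3 Model libraries than in all 3 Normal libraries, by a log2 fold change of -0.10 ± 0.09 (95% interval -0.30 to 0.10), a separation that 9.12% of tested genes showed in one direction or the other. All 3 had an edgeR adjusted p of 0.999. The intervals leave room for changes of up to 1.27-fold in Cyp1a1, and so do not show that the groups are alike.

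The ratio of 2 genes within a library does not depend on how libraries are scaled. The FPKM ratio of Cyp1a1 to Ahr was 0.280, 0.309 and 0.272 in Normal, 0.308, 0.291 and 0.389 in Model and 0.834, 0.830 and 0.618 in Treated. Every Treated ratio lay above every other, and the mean rose from 0.330 ± 0.0522 in Model to 0.760 ± 0.123 in Treated (SD, n = 3). The ratio of Cyp1b1 to Ahr was 0.119, 0.138 and 0.124 in Normal, 0.137, 0.111 and 0.132 in Model and 0.187, 0.215 and 0.177 in Treated, again with all Treated libraries above the rest. As log2 ratios, Treated exceeded Model by 1.20 for Cyp1a1 to Ahr and by 0.61 for Cyp1b1 to Ahr. The ratios reuse the levels given above, and those of Cyp1a1 were chosen after seeing the data. How often ratios of other genes separate in this way was not computed. For CPM of single genes the share was 18.8% between Treated and Model and 24.4% between Treated and Normal.

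Per length, Cyp1a1 was more abundant than Cyp1b1 in all 9 libraries, and its lead grew in the Treated group. The ratio of Cyp1a1 to Cyp1b1 was 2.34, 2.23 and 2.20 in Normal, 2.26, 2.61 and 2.95 in Model and 4.46, 3.85 and 3.50 in Treated. Treated exceeded Model by 0.60 and Normal by 0.80 on the log2 scale, with no overlap. Cyp1a1 made up 69.3% ± 0.684 of the summed FPKM of both enzymes in Normal, 72.1% ± 2.70 in Model and 79.6% ± 1.97 in Treated (SD, n = 3), while that sum was 9.30 ± 0.396, 9.57 ± 0.824 and 19.5 ± 1.28 FPKM. Each of the 6 comparisons of the 3 ratios that involve the Treated group had p = 0.10 in a two-sided exact permutation test over libraries, the smallest that 3 against 3 libraries allow, so the design cannot reach 0.05 (Benjamini-Hochberg adjusted p = 0.15 over 9 tests). Between Model and Normal the exact p was 0.30 for Cyp1a1 to Ahr, 0.90 for Cyp1b1 to Ahr and 0.20 for Cyp1a1 to Cyp1b1, with overlapping libraries in each.

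**Figure D4:**
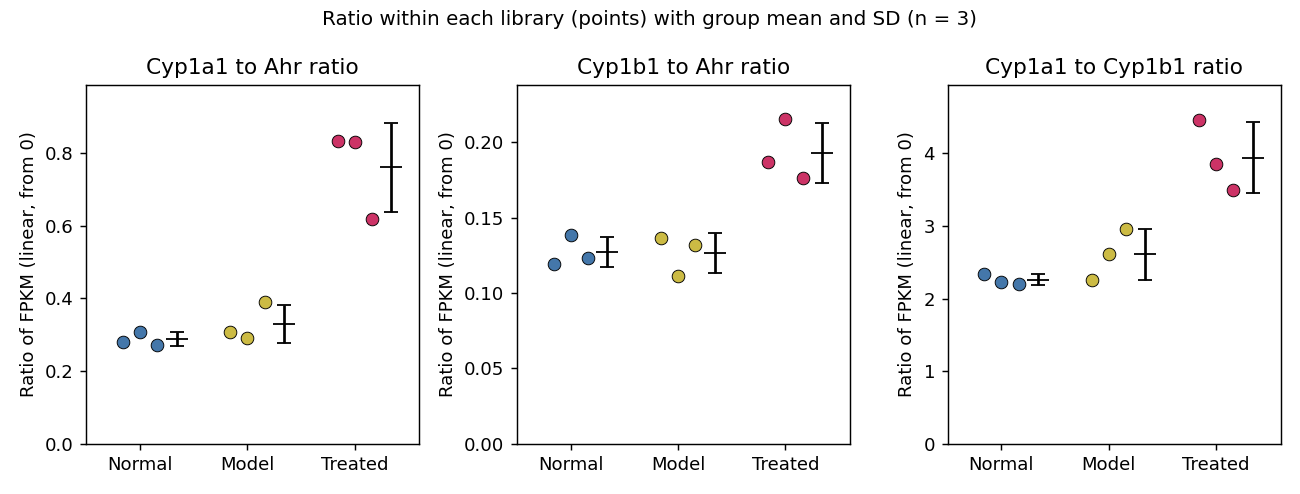
Ratio of FPKM within each library (linear axes from 0) for 3 pairs of genes, as points by group with the group mean and SD (n = 3). The Treated libraries lie above all others in each panel, at 0.618 to 0.834 for Cyp1a1 to Ahr, 0.177 to 0.215 for Cyp1b1 to Ahr and 3.50 to 4.46 for Cyp1a1 to Cyp1b1.

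By rank among the genes above 0 of a library, Cyp1a1 moved from the top 48.6% to 53.1% in Normal and Model libraries to the top 32.2% to 36.7% in Treated libraries. Cyp1b1 stood at the top 60.95% to 62.4% in Treated libraries and at the top 62.7% to 65.2% in Normal and Model libraries. These percentages depend on the number of genes above 0. It was 16015 in Treated 2 and 16107 in Treated 3, the lowest of the 9 libraries. The order by FPKM was Ahr, Cyp1a1 and Cyp1b1 in each of the 9. Among the 11697 tested genes of mean log2 CPM above 1, the profile most like that of Cyp1b1 over the 9 libraries was that of ENSRNOG00000020254 (Pearson r of log2 CPM 0.96). That gene had 15.2 ± 0.918 CPM in Normal, 14.6 ± 0.930 CPM in Model and 23.1 ± 2.20 CPM in Treated (SD, n = 3; log2 fold change 0.65 against Model, edgeR adjusted p = 0.00960). Next came ENSRNOG00000016725 (r = 0.96), at 118.1 ± 1.797 CPM in Model and 135.8 ± 5.47 CPM in Treated, which was not called (edgeR adjusted p = 0.156). Cyp1a1 stood at place 26 by likeness to Cyp1b1 (r = 0.92), and Ahr had r = -0.19. These correlations describe 9 libraries that fall into a Treated trio and 6 others. ENSRNOG00000020254 and ENSRNOG00000016725 were picked by this likeness in these same libraries. Their higher Treated levels were thus favoured by the choice and are no separate evidence. The genes compared were read in the same libraries, which differ in treatment and in depth.

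**Figure D5:**
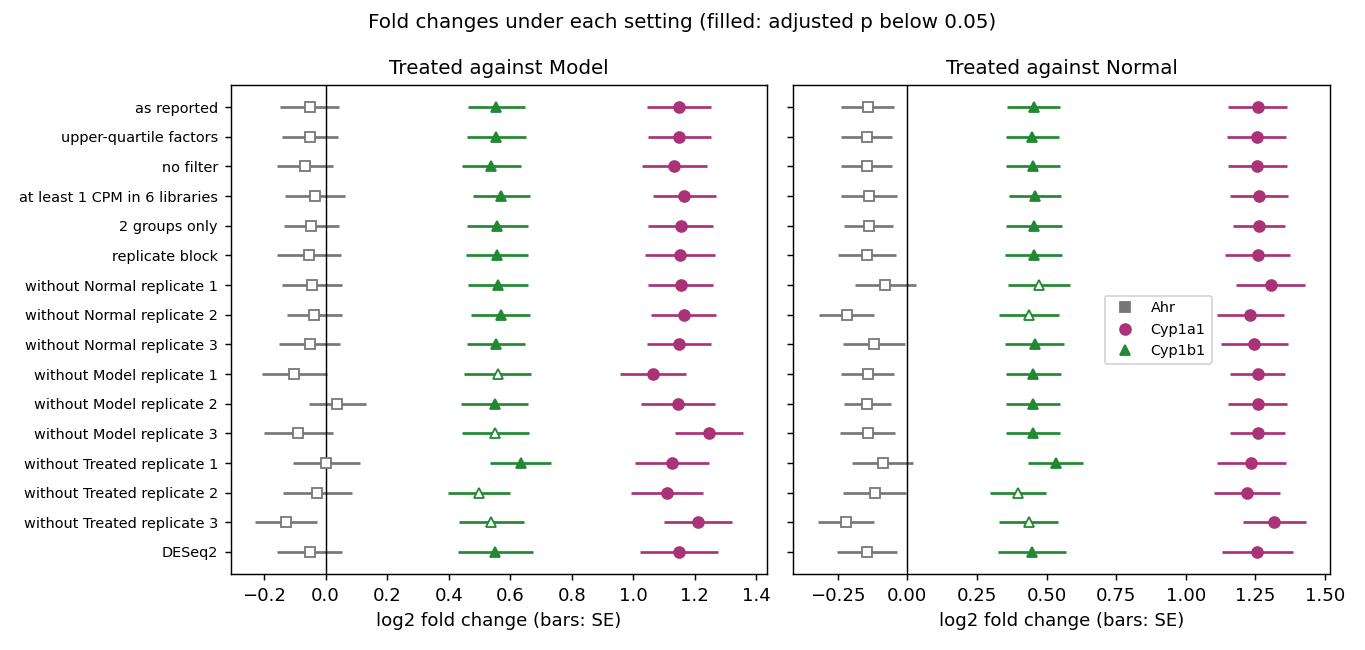
Log2 fold change with SE (bars) of the 3 genes for Treated against Model and Treated against Normal under the reported fit and 15 alternatives, with filled symbols for an adjusted p below 0.05. Cyp1a1 stays between 1.06 and 1.25 against Model and between 1.22 and 1.32 against Normal and is filled throughout, while Cyp1b1 is open in 4 of the 15 alternatives of each comparison.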

How the data were processed

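RNA of 9 libraries in 3 groups of 3 was analysed. The authors deposited whole-number read counts and FPKM values per Ensembl gene, per the file headers. The submitters' processing notes list CASAVA 1.8 and the build mRatBN7.2, and the labels' protocols a strand-specific library kit. For the aligner, counter and annotation no source used here gives a name. Counts divided by FPKM gave 1 length per gene to within 0.00164% (10067 genes with at least 50 counts in every library).

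A robust quasi-likelihood fit of all 9 libraries with the group as the only term was made from the counts in edgeR 4.0.16 (R 4.3.3; TMM scaling; genes kept by filterByExpr, minimum count 10), with Benjamini-Hochberg adjustment over 12943 genes and a threshold of 0.05. The standard error is the log2 fold change divided by the square root of the F statistic, and intervals are at 95%. The fit was tested on simulated data. Replicate pairs within a group differed beyond sampling noise (chi-square per degree of freedom 4.98 to 16.1). Ratios use the deposited FPKM. Those of Cyp1a1 were chosen after seeing the data.

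The alternatives tried were upper-quartile factors, DESeq2 1.42.0, fits on 2 groups, no filter, a filter of 1 CPM in 6 libraries, leaving out each library and a replicate block. The named genes are the 3 members and the 2 profiles most like Cyp1b1. The rule for the members uses identifiers and no measured value, but members and lists were chosen with earlier results of these data known. Symbols were paired with identifiers by the list that chose the members, since the RefSeq gene table (GRCr8, 47357 genes) holds 0 Ensembl identifiers. The marker and pathway lists were therefore not scored. Of the 3 members, 2 had a promoter window in the RefSeq table.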

Additional observations from a re-analysis of the deposited data

How the results depend on the processing

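Cyp1a1 kept its direction and its call in all 15 alternatives against Model and against Normal, with edgeR or DESeq2 adjusted p of at most 0.00341 and 0.00112. Cyp1b1 kept its direction in all 15 of each. It lost its call in 4 of the 9 fits that leave out a library. Over all 9 the log2 fold change ranged from 0.50 to 0.63 against Model and from 0.40 to 0.53 against Normal. These fits hold fewer libraries. For Ahr, leaving out a library gave -0.13 to 0.04 against Model, with the sign turned to 0.0383 without Model 2 and 0.00271 without Treated 1. The Cyp1b1 to Ahr log2 ratio between Model and Normal, -0.01, ranged from -0.0661 to 0.0804 without single libraries, at 0.0536 without Normal 2 and 0.0804 without Model 2.

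The number of genes called was 119 for Treated against Model, 346 for Treated against Normal and 0 for Model against Normal. It was 233 and 549 for the first 2 in DESeq2. Leaving out a library gave 8 to 215, 94 to 671 and 0 to 16. The first fell to 65 without Normal 1, 28 without Model 1, 15 without Model 3, 56 without Treated 1, 8 without Treated 2 and 45 without Treated 3, and rose to 215 without Model 2. The second was 94 without Treated 2, 137 without Treated 3, 98 without Normal 1, 671 without Normal 3 and 181 without Normal 2. The third was 16 without Model 1. The cause was not tested. With the replicate number as a block the counts were 47, 302 and 1, and no call of a member changed. Labels do not say that equal numbers mark a shared culture or day, and only 2 of 9 same-numbered pairs correlated above 0.1 (range -0.01 to 0.28), so the numbers were not taken as pairs.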
